A study of Mus musculus with 11 samples.

Results

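The vasoactive and shear-responsive genes of the retinal endothelium were Nos3, Ptgs1, Ptgis, Edn1, Ece1, Ednrb, Ace, S1pr1, Piezo1 and Calcrl. These 10 genes were chosen by symbol and not by a measured value, but with earlier results of these data known. All 10 were found by their Ensembl identifiers among the 55359 genes of the count files. RNA was sequenced from CD31+ and CD45- cells sorted from C57BL/6 mice (C57BL/6J in the study's methods) in the oxygen-induced retinopathy (OIR) model, in which pups are exposed to high oxygen and new vessels then grow pathologically in the hypoxic retina. Eyes received 0.5 µL of oncostatin M (OSM, a cytokine of the IL-6 family) at 100 ng/µL in 5 mice or 0.5 µL of PBS in 6 mice at P12, and the cells were sorted at P17. All mice of both groups went through OIR, so no group without retinopathy was compared. A sample held the pooled cells of both retinas of a mouse. Litter 1 held OSM-treated mice 1 and 2 and PBS-treated mice 3 and 4, litter 2 held OSM-treated mice 5 and 6 and PBS-treated mice 7 and 8, and litter 3 held OSM-treated mouse 9 and PBS-treated mice 10 and 11. Each litter was also a separate OIR run, so litter and run cannot be told apart. The study's methods mention PBS injections into contralateral eyes and do not say whether this applied to the sequenced mice, and the labels give 1 treatment per mouse.

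Endothelial cells set the tone of the vessel wall by releasing mediators that relax or constrict it. Nitric oxide and prostacyclin relax smooth muscle and pericytes, whereas endothelin-1 and angiotensin II constrict vessels. Blood flow is sensed at the cell surface, among others by the PIEZO1 channel, and laminar shear stress is known to raise the transcription factors KLF2 and KLF4 and nitric oxide synthase and to lower endothelin-1.

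The sorted libraries held 26697990 to 56033479 reads on genes. All 10 endothelial markers examined (Pecam1, Cdh5, Cldn5, Tie1, Tek, Kdr, Erg, Emcn, Esam and Egfl7) were read in every mouse, and they summed to between 12349.9 and 15784 CPM (counts scaled to the same TMM-adjusted library size). The 10 markers of microglia and leukocytes together stayed at or below 10.4 CPM. Transcripts listed as markers of other cells were present. The 10 Müller glia markers summed to 1739 to 2208 CPM, most of it from Vim (mean 1384 CPM), Apoe (289.9) and Glul (237). The rest of this list had means from 0.393 CPM (Kcnj10) to 19.2 CPM (Sox9). The sums were 310.0 to 1737 CPM for 10 mural cell markers, 184 to 4704 CPM for 8 rod markers and 117 to 1129 CPM for 5 erythroid markers. In RNA of pooled cells, fewer cells of a type and less RNA per cell cannot be told apart.

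The promoters of Edn1 and Calcrl are shown because both genes had an unadjusted p under 0.05 between litters (below), and each has a single start in the RefSeq promoter table of GRCm38.p6. This is an older build than the GRCm39 positions given for the genes. The table held 7 of the 10 genes, and Nos3, Ptgis and S1pr1 were not among them. The windows are the 250 bases before the start, written 5′ to 3′ on the strand of the gene, and capitals mark CACCC or its reverse complement, the core of the box bound by KLF factors.
Edn1, chr13:42301226-42301475, plus strand: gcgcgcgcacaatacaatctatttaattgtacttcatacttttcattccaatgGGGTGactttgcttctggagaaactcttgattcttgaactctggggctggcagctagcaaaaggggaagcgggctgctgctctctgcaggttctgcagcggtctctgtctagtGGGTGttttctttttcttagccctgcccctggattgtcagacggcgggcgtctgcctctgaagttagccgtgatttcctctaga
Calcrl, chr2:84425267-84425516, minus strand: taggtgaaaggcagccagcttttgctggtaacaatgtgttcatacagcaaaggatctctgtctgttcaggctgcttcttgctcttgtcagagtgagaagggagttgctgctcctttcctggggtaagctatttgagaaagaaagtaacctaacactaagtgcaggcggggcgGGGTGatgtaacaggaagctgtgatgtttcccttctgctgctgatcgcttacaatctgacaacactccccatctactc
The Edn1 window held 2 matches, beginning 197 and 84 bases before the start, and the Calcrl window held 1 match, beginning 78 bases before it. Both strands were searched, and 52% of all 32851 windows of this length held at least 1 match. Of the 7 genes in the table, 6 held one in at least 1 window, with 4 windows for Ece1, 2 for Ace and 1 for each of the others. The STAT motif TTCNNNGAA (7.02% of all windows), the AP-1 motif TGANTCA (6.75%) and the GATA motif TGATAA (7.94%) were found in 0 of the 7 genes, and the hypoxia response core ACGTG (16.6%) was found in Ece1 only. These motifs were chosen with results of these data known, and a match describes letters and not a bound site.

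All 10 genes were read in every mouse, from 151 reads of Ednrb in OSM-treated mouse 2 to 38270 reads of Ece1. To compare genes with each other, CPM were divided by the length of the merged exons in kilobases. The mean level per kilobase over 11 mice fell 41.0-fold from S1pr1, the receptor for the blood lipid sphingosine 1-phosphate, at 162 ± 37.4 CPM per kilobase (SD, n = 11 mice) to Ace, angiotensin-converting enzyme, at 3.96 ± 1.48 (SD, n = 11). Between them stood Ece1 at 108 ± 22.8, Nos3 at 91.3 ± 15.1, Ptgis at 50.4 ± 13.3, Edn1 at 42.8 ± 20.3, Piezo1 at 22.3 ± 5.49, Calcrl at 17.3 ± 6.15, Ptgs1 at 9.37 ± 3.67 and Ednrb at 5.79 ± 2.58 CPM per kilobase (SD, n = 11). Neighbours in this order were compared within mice by an exact two-sided sign-flip permutation test, with p-values adjusted over 9 pairs. Of these pairs, 6 differed, the clearest being S1pr1 above Ece1 and Nos3 above Ptgis, each in 11 of 11 mice (exact permutation test, adjusted p = 0.00439). The step from Ece1 to Nos3 was small, with a mean difference of 0.23 on the log2 scale and Ece1 higher in 10 of 11 mice (exact permutation test, adjusted p = 0.0299). Ptgis and Edn1 did not differ in this test, which has no litter term (exact permutation test, adjusted p = 0.289). Their order went with litter, as Edn1 was higher in every mouse of litter 1. Ptgis was higher in the 7 of 11 mice that made up litters 2 and 3. Piezo1 and Calcrl did not differ (exact permutation test, adjusted p = 0.105), nor did Ednrb and Ace (exact permutation test, adjusted p = 0.253).

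**Figure D1:**
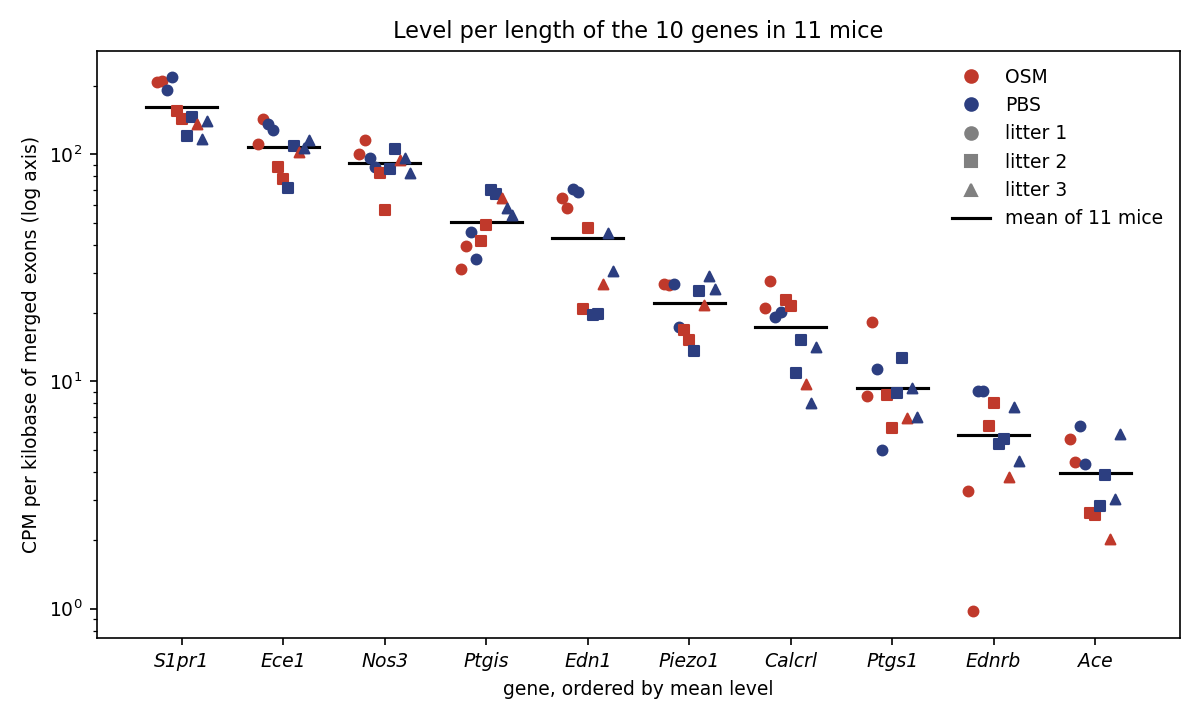
Level of the 10 genes in CPM per kilobase of merged exons on a log axis, ordered by the mean of 11 mice (black line), with 1 point per mouse coloured by treatment and shaped by litter. S1pr1 had the highest mean, 162 CPM per kilobase, and Ace the lowest, 3.96 CPM per kilobase.

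The position of Nos3 in this order and the level of Piezo1 depended on how shared exon bases were treated. Reads were assigned without strand and reads that overlap 2 genes are left out at standard settings, and 3924 of the 9939 exon bases of Piezo1 also lie in Ctu2 on the opposite strand. For Nos3, 1338 of 5003 exon bases lie in the opposite-strand gene Gm15587 and 297 in Atg9b. Counted over bases shared with no other gene, the level was 136 CPM per kilobase for Nos3, above Ece1 at 108, and 36.8 for Piezo1, which kept its place between Edn1 and Calcrl.

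Nos3 encodes endothelial nitric oxide synthase (ENSMUSG00000028978, GRCm39 chromosome 5, 24569787 to 24589475, plus strand), and it had the lowest coefficient of variation of the 10 genes, 16.5% over 11 mice. In litter 1, its level was 502 and 579.7 CPM in the OSM-treated mice and 481 and 438 CPM in the PBS-treated mice. In litter 2 it was 416 and 286 CPM after OSM and 432 and 525 CPM after PBS, and in litter 3 it was 471 CPM after OSM and 481 and 413 CPM after PBS. The mice therefore spanned a 2.03-fold range, with OSM-treated mice 6 and 2 at its ends, and the groups overlapped. Nos2, which encodes the inducible synthase, was also read in every mouse at 54.3 to 123 CPM. Per kilobase of merged exons, Nos3 was above Nos2 in 11 of 11 mice, by a mean of 2.37 ± 0.45 on the log2 scale (SD, n = 11). This difference was not recomputed over exon bases shared with no other gene. Nos1, the neuronal synthase, had reads in 4 of 11 mice. The nitric oxide receptor in target cells is soluble guanylate cyclase, and its subunits Gucy1a1 and Gucy1b1 had mean levels of 1.84 and 1.56 CPM per kilobase.

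Prostacyclin is made from arachidonic acid by a cyclooxygenase and then by prostacyclin synthase. Ptgs1 encodes cyclooxygenase 1 (ENSMUSG00000047250, chromosome 2, 36120438 to 36142287, plus strand) and had 33.6 and 70.7 CPM after OSM and 44.0 and 19.4 CPM after PBS in litter 1. In litter 2, Ptgs1 had 33.9 and 24.3 CPM after OSM and 34.6 and 49.4 CPM after PBS, and in litter 3 it had 26.9 CPM after OSM and 36.6 and 27.1 CPM after PBS. Both ends of its range, OSM-treated mouse 2 and PBS-treated mouse 4, were in litter 1, and both OSM-treated mice of litter 2 were below both PBS-treated mice. The inducible cyclooxygenase, Ptgs2, was read in 1 of 11 mice, with 36 reads in PBS-treated mouse 3 and 0 in the others, where 3 reads would correspond to at most 0.112 CPM. Ptgis encodes prostacyclin synthase (ENSMUSG00000017969, chromosome 2, 167033725 to 167083018, minus strand) and was above Ptgs1 per kilobase in 11 of 11 mice, by 2.47 ± 0.63 on the log2 scale (SD, n = 11). Its level was 112 and 141 CPM after OSM and 162 and 123 CPM after PBS in litter 1. In litter 2, Ptgis had 149 and 175 CPM after OSM and 250.02 and 240.4 CPM after PBS, and in litter 3 it had 231 CPM after OSM and 208 and 194 CPM after PBS. Litter 1 thus held the 3 lowest values of Ptgis, and in litter 2 both OSM-treated mice were below both PBS-treated mice. The prostacyclin receptor gene Ptgir had at most 3.89 CPM and no reads in 5 of 11 mice.

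The endothelin system was represented by a precursor, the protease that activates it and a receptor. Edn1 encodes the precursor of endothelin-1 (ENSMUSG00000021367, chromosome 13, 42446301 to 42461466, plus strand). In litter 1, Edn1 had 176 and 159.8 CPM after OSM and 194 and 187 CPM after PBS. In litter 2 it had 57.2 and 129 CPM after OSM and 53.6 and 54.3 CPM after PBS, and in litter 3 it had 73.4 CPM after OSM and 123 and 84.0 CPM after PBS. Every mouse of litter 1 was above every mouse of litters 2 and 3, whichever treatment was given. OSM-treated mouse 6 stood apart from the other mice of litter 2. The genes of the other endothelins were scarce, with reads of Edn2 in 1 mouse and of Edn3 in 6 of 11 mice, at up to 9.99 CPM.

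Ece1 encodes endothelin-converting enzyme 1 (ENSMUSG00000057530, chromosome 4, 137589530 to 137692542, plus strand), which cleaves the inactive precursor. It had 742 and 952 CPM after OSM and 902 and 854 CPM after PBS in litter 1. In litter 2, Ece1 had 583 and 519.7 CPM after OSM and 474 and 721 CPM after PBS, and in litter 3 it had 684 CPM after OSM and 711 and 772 CPM after PBS. Litter 2 held the lowest values and litter 1 the highest, with overlap between litters. Ece1 was above Edn1 per kilobase in 11 of 11 mice, by 1.47 ± 0.60 on the log2 scale (SD, n = 11), and its relative Ece2 had 0 reads in every mouse, where 3 reads would correspond to 0.0535 to 0.112 CPM.

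Ednrb encodes the endothelin B receptor (ENSMUSG00000022122, chromosome 14, 104052053 to 104081900, minus strand), which on endothelium triggers release of nitric oxide and clears endothelin-1. Its values were 14.8 and 4.38 CPM after OSM and 40.9 CPM in both PBS-treated mice of litter 1. In litter 2, Ednrb had 28.7 and 36.2 CPM after OSM and 23.8 and 25.0 CPM after PBS, and in litter 3 it had 16.999 CPM after OSM and 34.6 and 20.1 CPM after PBS. The order of the groups in litter 2 was thus opposite to that in litters 1 and 3. The whole range, 9.35-fold, was the widest of the 10 genes, but its low end rests on OSM-treated mouse 2 alone. The next lowest value was 14.8 CPM, in OSM-treated mouse 1. Ednra, the receptor that constricts vessels from smooth muscle and pericytes, had 1.58 to 49.6 CPM and rose and fell with the summed mural markers over the mice (Pearson r = 0.80, Spearman rho = 0.76, n = 11 mice from shared libraries). Leaving out the 2 mice farthest from the median of the mural markers gave r = 0.70 for Ednra. The same correlation was 0.42 for Ednrb (rho = 0.37, and r = 0.73 without the 2 farthest mice).

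**Figure D2:**
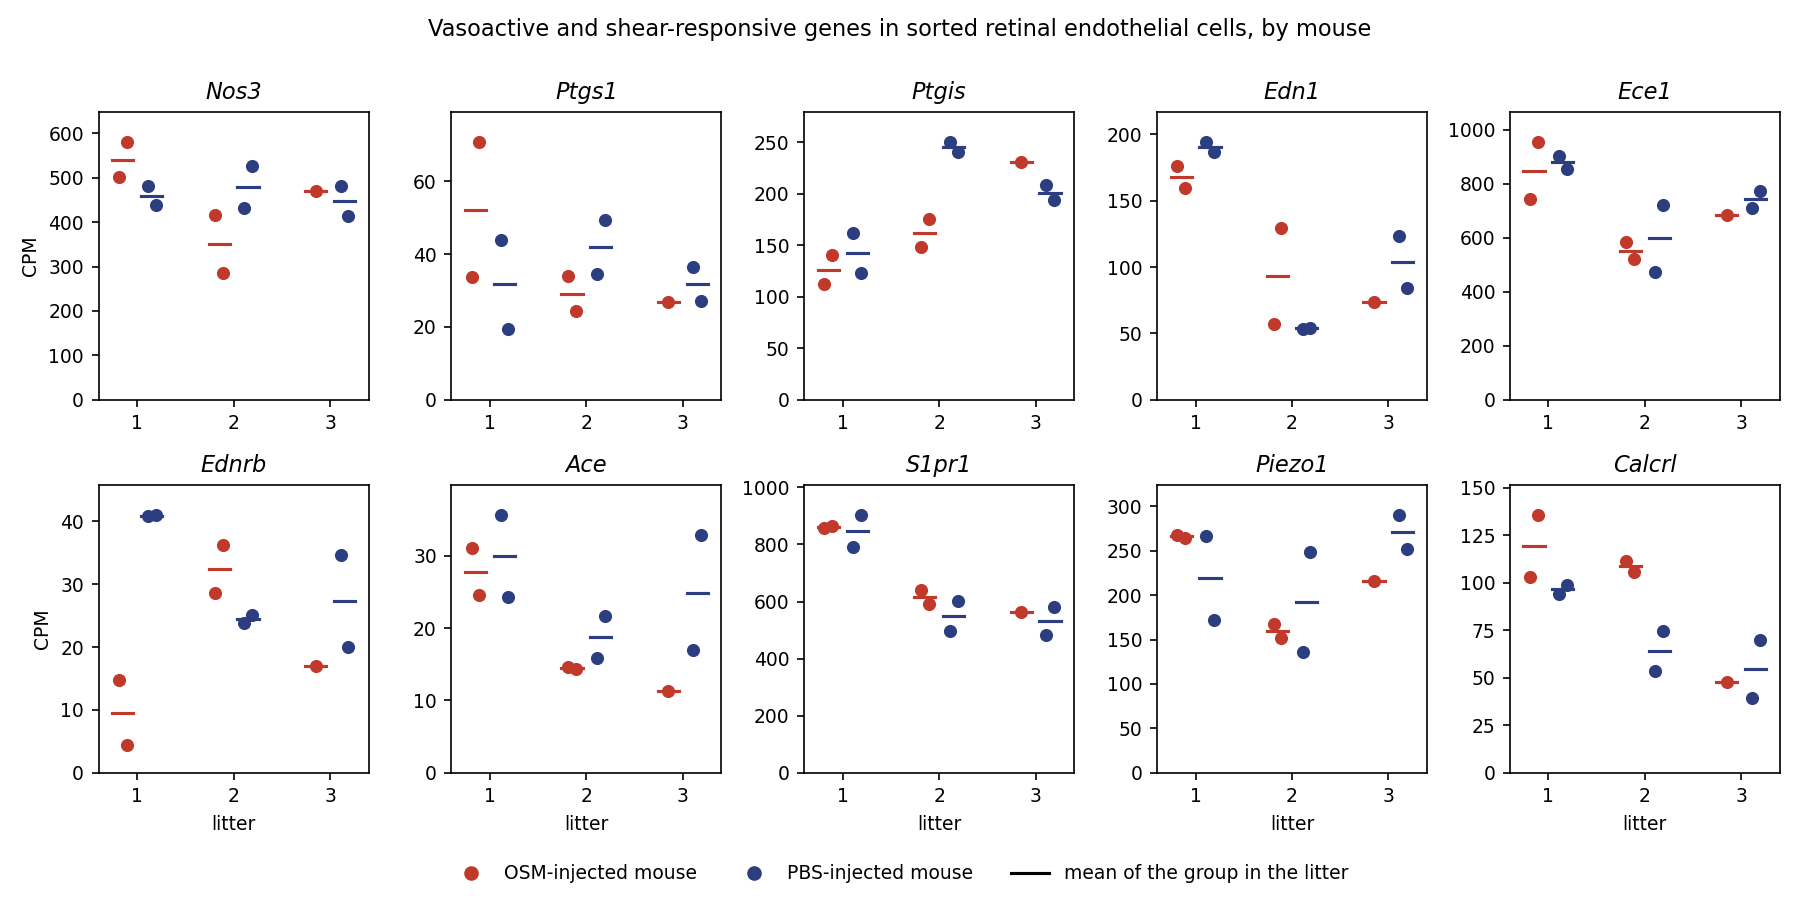
CPM of each of the 10 genes in every mouse by litter, with a point per mouse, OSM in red and PBS in blue, a line for the mean of a treatment in a litter, and vertical axes starting at 0. All 4 mice of litter 1 lie above the others for Edn1 and S1pr1, and the 2 OSM-treated mice of litter 1 are the lowest for Ednrb.

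Ace encodes angiotensin-converting enzyme (ENSMUSG00000020681, chromosome 11, 105858469 to 105880790, plus strand), which makes angiotensin II and degrades bradykinin. It had 31.0 and 24.6 CPM after OSM and 35.6 and 24.3 CPM after PBS in litter 1. In litter 2, Ace had 14.7 and 14.4 CPM after OSM and 15.9 and 21.6 CPM after PBS, and in litter 3 it had 11.4 CPM after OSM and 17.02 and 32.8 CPM after PBS. In litters 2 and 3, the OSM-treated mice were below the PBS-treated mice of their litter, whereas in litter 1 the groups overlapped. Other parts of the renin-angiotensin system were nearly absent. Angiotensinogen (Agt) was read in 3 of 11 mice, renin (Ren1) in 2 of 11 mice at up to 22 reads, and the receptor genes Agtr1a and Agtr1b each gave 1 read in 1 mouse. The bradykinin receptor gene Bdkrb2 was read in every mouse at 20.6 to 53.4 CPM.

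S1pr1 encodes the receptor through which sphingosine 1-phosphate stabilizes endothelial junctions (ENSMUSG00000045092, chromosome 3, 115504071 to 115508721, minus strand). In litter 1 it had 858 and 866 CPM after OSM and 791 and 901 CPM after PBS. In litter 2, S1pr1 had 642 and 591 CPM after OSM and 496 and 603 CPM after PBS, and in litter 3 it had 563 CPM after OSM and 483 and 581 CPM after PBS. Litter 1 was again above every other mouse, and within litters the treatments overlapped. S1pr1 exceeded S1pr3, the next receptor of this family, per kilobase in 11 of 11 mice by 4.54 ± 0.98 on the log2 scale (SD, n = 11). S1pr3 had 9.47 to 72.7 CPM and followed the mural markers (Pearson r = 0.87, Spearman rho = 0.82, n = 11 mice, and r = 0.77 without the 2 farthest mice), whereas the correlation of S1pr1 with them was -0.36 (rho = -0.42, and r = -0.49 without these mice). Spns2, the transporter that exports sphingosine 1-phosphate from endothelial cells, was read in every mouse at 117 to 184 CPM.

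Piezo1 encodes a mechanosensitive cation channel (ENSMUSG00000014444, chromosome 8, 123208437 to 123278072, minus strand). It had 267 and 265 CPM after OSM and 267 and 173 CPM after PBS in litter 1. In litter 2, Piezo1 had 168 and 152 CPM after OSM and 136 and 249 CPM after PBS, and in litter 3 it had 216 CPM after OSM and 289.7 and 253 CPM after PBS. The groups overlapped in litters 1 and 2, and the single OSM-treated mouse of litter 3 was below both PBS-treated mice. Piezo1 was above Piezo2 per kilobase of merged exons in 11 of 11 mice, by 2.65 ± 0.44 on the log2 scale (SD, n = 11). The size of this difference depends on the treatment of shared exon bases and was not recomputed over unshared bases. Of the shear-responsive transcription factors, Klf2 had 237 to 459 CPM and Klf4 27.5 to 46.9 CPM, and Klf2 was above Klf4 per kilobase in 11 of 11 mice by 3.70 ± 0.23 on the log2 scale (SD, n = 11).

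Calcrl encodes the calcitonin receptor-like receptor (ENSMUSG00000059588, chromosome 2, 84160957 to 84255755, minus strand). It binds calcitonin gene-related peptide when paired with RAMP1 and adrenomedullin, a vasodilator peptide, when paired with RAMP2 or RAMP3. Calcrl had 103 and 135 CPM after OSM and 94.3 and 98.9 CPM after PBS in litter 1. In litter 2 it had 112 and 106 CPM after OSM and 53.6 and 74.4 CPM after PBS, and in litter 3 it had 47.8 CPM after OSM and 39.4 and 69.7 CPM after PBS. In litters 1 and 2, both OSM-treated mice were above both PBS-treated mice, and in litter 3 the OSM-treated mouse lay between the PBS-treated mice. Of its partners, Ramp2 was read at 914 to 1189 CPM in every mouse and was above Ramp3 per kilobase in 11 of 11 mice, by 5.70 ± 1.17 on the log2 scale (SD, n = 11). Ramp1 had 0 reads in all 11 mice, as did Calca and Calcb, the genes of calcitonin gene-related peptide. The adrenomedullin gene Adm was read at 182 to 585 CPM, and per kilobase it was above Calcrl in 11 of 11 mice by 3.41 ± 0.44 on the log2 scale (SD, n = 11).

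**Figure D3:**
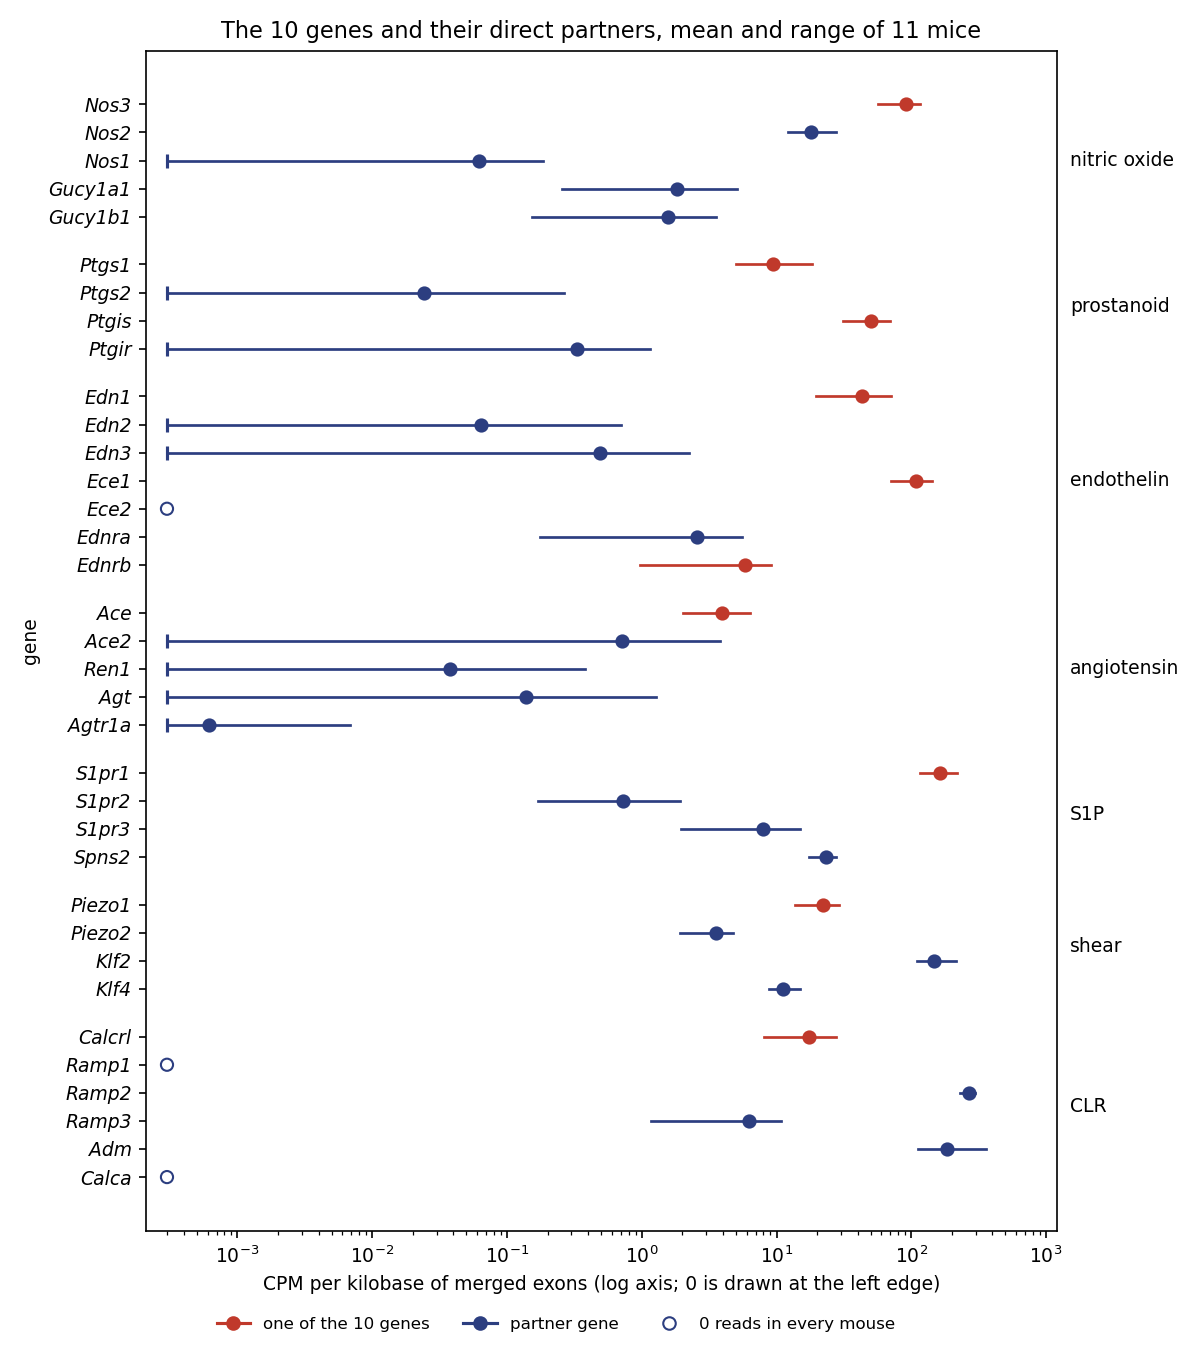
Mean (point) and range (line) over 11 mice of CPM per kilobase of merged exons on a log axis for the 10 genes (red) and for their ligands, receptors, coreceptors, related enzymes and KLF factors (blue), grouped by system, with 0 drawn at the left edge and open circles for genes with 0 reads in every mouse. Ramp2 and Adm stand above Calcrl, S1pr1 above the other receptors of its family, and Ramp1, Calca and Ece2 had 0 reads.

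The effect of OSM was tested in edgeR by a quasi-likelihood fit with terms for litter and treatment and Benjamini-Hochberg adjustment over 17050 genes, and a gene was called at an adjusted p under 0.05. None of the 10 genes was called (0 of 10), against 0% of all genes tested. DESeq2 with the same terms called 168 of 28940 genes and 0 of the 10. At an unadjusted p under 0.05, 0 of the 10 genes passed, against 4.96% of all genes. The lowest adjusted p among them was 0.970, for Calcrl (edgeR). The estimate was above 0 for 4 genes and below 0 for 6, with a median log2 fold change of -0.07, against -0.01 for all genes. The treatment groups overlapped for all 10 genes, and groups without overlap were seen in 0.405% of all genes.

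The size of difference that these data leave possible differed between genes. For S1pr1 the log2 fold change was 0.09 (SE 0.08), with a 95% interval of the fold from 0.944 to 1.21. For Ece1 it was -0.09 (SE 0.11), with a fold from 0.793 to 1.11, and for Nos3 -0.06 (SE 0.14), with a fold from 0.772 to 1.19. These 3 genes, which are the most abundant per kilobase, had the narrowest intervals together with Ptgis, at -0.23 (SE 0.14) and a fold from 0.688 to 1.05. Calcrl had the highest estimate, 0.36 (SE 0.20), with a fold from 0.947 to 1.74. Ednrb had the lowest, -0.79 (SE 0.47), with a fold from 0.281 to 1.18, followed by Ace at -0.44 (SE 0.27), with a fold from 0.488 to 1.11. The estimates were 0.11 (SE 0.26) for Edn1, -0.08 (SE 0.18) for Piezo1 and 0.01 (SE 0.32) for Ptgs1. The sign of the last 3, of Nos3 and of Ece1 turned when 1 mouse or litter was left out. For Ednrb, the estimate was between -1.50 and -0.0075 when 1 mouse or 1 litter was left out, and it was -0.40 without OSM-treated mouse 2 and closest to 0 without litter 1.

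**Figure D4:**
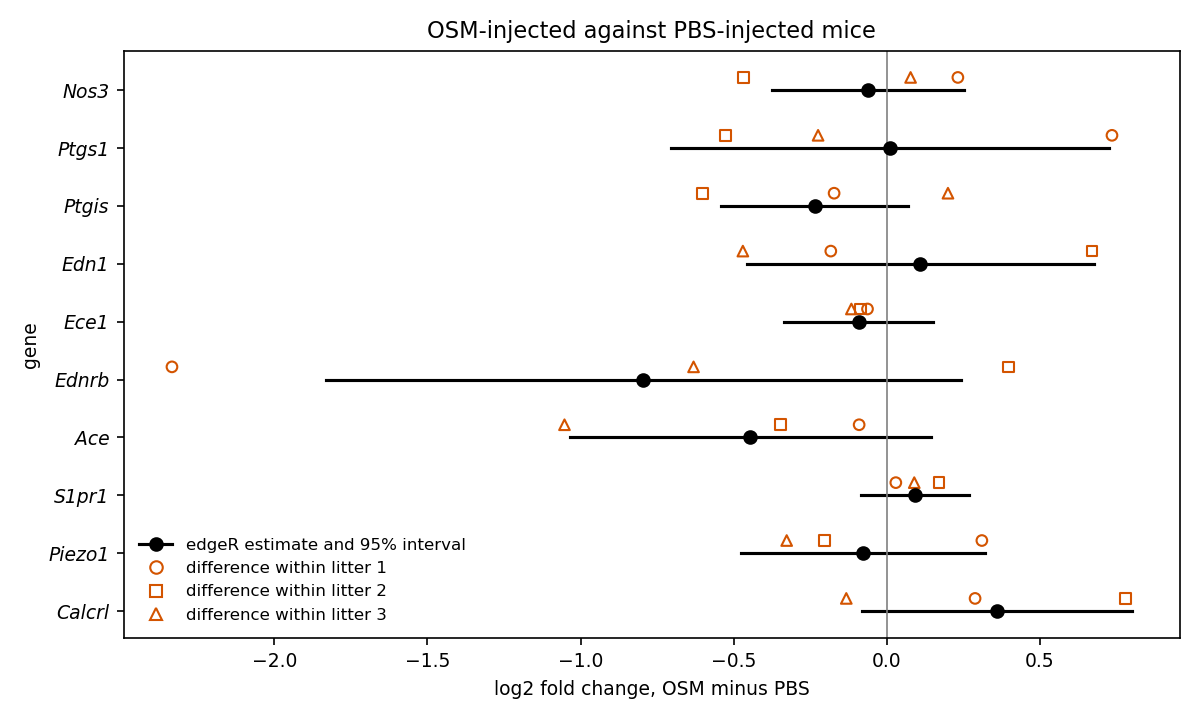
Log2 fold change (OSM minus PBS) of each gene, with edgeR's estimate (black point) and 95% interval (line) from 11 mice, and the differences of mean log2 CPM within litters 1 to 3 (open orange circle, square and triangle). Every interval includes 0, and the litters fall on both sides of 0 for all genes but Ece1, Ace and S1pr1.

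Within each litter, the difference of mean log2 CPM between treatments was computed without a test, because a litter held 1 or 2 mice per group. The same sign in all 3 litters was seen for 3 of the 10 genes, against 24.1% of all genes, and for 2 of the 10 when libraries were scaled on the endothelial markers. Ece1 was lower after OSM, by -0.06, -0.09 and -0.12 on the log2 scale in litters 1, 2 and 3. Ace was also lower, by -0.09, -0.35 and -1.05, and S1pr1 was higher, by 0.03, 0.17 and 0.09. For Calcrl the differences were 0.29, 0.78 and -0.13. Whether the treatment effect differed between litters was tested with an interaction term. In edgeR, 0 of the 10 genes was called, against 0% of all genes. DESeq2's likelihood ratio test also called 0 of the 10, against 673 of 28940 genes. At an unadjusted p under 0.05, 1 of the 10 genes passed edgeR's test, against 6.42% of all genes. This was Ednrb, with differences of -2.33, 0.40 and -0.63 in litters 1, 2 and 3 (edgeR, adjusted p = 0.704). All 10 mural markers had estimates below 0 after OSM, with summed levels of 410 to 831 CPM in OSM-treated mice and 310.0 to 1737 CPM in PBS-treated mice. All 5 erythroid markers had estimates above 0, with sums of 359 to 1129 CPM after OSM and 117 to 596 CPM after PBS. Their part in the differences between treatments was not tested.

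The mean levels of several of the 10 genes varied from litter to litter, and only some of the methods called such a difference. In edgeR's test of the litter terms, none of the 10 genes was called (0 of 10), against 0.0176% of all genes, but 6 of the 10 had an unadjusted p under 0.05, against 10.3% of all genes. The lowest adjusted p was that of S1pr1 (edgeR, adjusted p = 0.0641), followed by Edn1 (0.179), Ece1 (0.181), Ptgis (0.233), Calcrl (0.289) and Ace (0.482). The number of calls depended on the method. When genes with low counts were kept, edgeR called 5 of the 10 genes, against 2.16% of all genes, and DESeq2's likelihood ratio test also called 5, against 3.44%. Both sets were S1pr1, Edn1, Ece1, Ptgis and Calcrl, with adjusted p of 6.35e-05 (edgeR without a filter) and 4.65e-08 (DESeq2) for S1pr1 and 3.68e-10 and 0.00323 for Edn1. The unadjusted p of Edn1 in edgeR's litter test was 0.00249 with the filter and 5.47e-13 without it. Its own reads, 1681 or more per mouse, were the same in both fits, so this change comes from the fit and not from the reads of Edn1. All mice of litter 1 lay outside the range of litters 2 and 3 for 2 of the 10 genes, Edn1 and S1pr1, against 2.99% of all genes.

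Edn1 had a mean of 179 ± 14.8 CPM in litter 1 (SD, n = 4), 73.6 ± 37.2 in litter 2 (n = 4) and 93.5 ± 26.2 in litter 3 (n = 3). In the fit, litters 2 and 3 were -1.30 and -0.92 on the log2 scale relative to litter 1. S1pr1 had means of 854 ± 46.1, 583 ± 62.0 and 542 ± 52.4 CPM (SD, in the same order), and its estimates relative to litter 1 were -0.55 and -0.64. Ece1 had means of 863 ± 89.9, 574 ± 107 and 722 ± 45.3 CPM, so it was lowest in litter 2. Calcrl fell from 108 ± 18.7 to 86.3 ± 27.2 and 52.3 ± 15.6 CPM, so it was lowest in litter 3. Ptgis went the other way, with 135 ± 21.9 CPM in litter 1 and 204 ± 49.4 and 211 ± 18.6 CPM in litters 2 and 3. Among 69 other genes of these systems, described further below, 10 had an unadjusted p under 0.05 between litters, against 10.3% of all genes, and 0 was called. Of these, Klf2 had mean levels of 394, 265 and 269 CPM in the 3 litters (edgeR, adjusted p = 0.109), Thbd, which encodes thrombomodulin, had 271, 190 and 142 CPM (adjusted p = 0.0861) and Adm had 407, 257 and 205 CPM (adjusted p = 0.1499). These 3 were highest in litter 1, as were 7 of the 10 by their means. The shear-related receptor gene Plxnd1 was not, with 525, 377 and 562 CPM (edgeR, adjusted p = 0.1495), nor was Pkd1, which encodes polycystin-1, with 219, 151 and 221 CPM (adjusted p = 0.305). Slc7a1, which encodes an arginine transporter, was lowest in litter 1, with 372, 476 and 509.9 CPM (adjusted p = 0.168). The summed endothelial markers were 14168 to 15784 CPM in litter 1 and 12349.9 to 15599 CPM in litters 2 and 3, and the rod markers 364 to 472 CPM and 184 to 4704 CPM. Of the endothelial markers, Pecam1 had mean levels of 1630, 1099 and 1243 CPM in litters 1, 2 and 3 (edgeR, adjusted p = 0.0783). Kdr had 2434, 1616 and 1943 CPM (edgeR, adjusted p = 0.218). Cdh5, Tie1, Tek and Emcn were also highest in litter 1 by their means, whereas Cldn5, Erg, Esam and Egfl7 were not. The part of these markers in the differences between litters was not tested.

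Over the 11 mice, the log2 CPM of some of the 10 genes varied together. S1pr1 and Calcrl had a Pearson r of 0.79 (Spearman rho 0.77), and r was also 0.79 after the litter means were removed. Ptgis ran against both, with r of -0.87 for S1pr1 (rho -0.84, and -0.59 within litters) and -0.76 for Calcrl (rho -0.73, and -0.65 within litters). Edn1 and S1pr1 had r of 0.70 (rho 0.65), which was -0.15 within litters, and Nos3 and Edn1 had r of 0.09 (rho 0.20), which was -0.74 within litters. These values describe 11 mice whose genes share library and depth.

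For each of the 10 genes, the genes with the highest Pearson r of log2 CPM were looked up among 8934 genes with a mean log2 CPM of at least 3. Edn1 was most like Ccn2, which encodes connective tissue growth factor (r = 0.94, and 0.81 within litters). Ece1 was most like Col4a1 (r = 0.95), a collagen of the vascular basement membrane, and Lama4, a laminin chain of the same structure, also ranked among its 3 most alike genes (r = 0.94). S1pr1 was most like Rac1 (r = 0.95, and 0.82 within litters), and Klf6, also among its 3 most alike genes, had r of 0.93 overall but 0.38 within litters. Nos3 was most like Cdc42ep1 (r = 0.96), Piezo1 like Dgkz (r = 0.94), Ace like Ebf1 (r = 0.93) and Calcrl like Tmc7 (r = 0.94). Ptgis was most like Cyc1 (r = 0.94), Ptgs1 like Ptpa (r = 0.89) and Ednrb like Strbp (r = 0.88), each over 11 mice. Spearman rho was 0.54 for Ednrb and Strbp, and 0.86 to 0.96 for the most alike genes of the others. Each r was picked as the highest of 8934 over 11 mice, and what such picking alone gives was not tested.

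Other genes of these systems were taken from 7 lists of 87 genes in all, of which 69 passed the filter on low counts. Between OSM and PBS, edgeR called 0 of the 69, with 30 estimates above 0 and 39 below 0 and a median log2 fold change of -0.06, against -0.01 for all genes. Of the 69, 3 genes with lower estimates after OSM and 0 with higher ones had an unadjusted p under 0.05, a share near the 4.96% of all genes. Gucy1a1 had 2.67 to 15.7 CPM in OSM-treated mice and 8.55 to 53.3 CPM in PBS-treated mice, with a log2 fold change of -1.65 (SE 0.56, edgeR adjusted p = 0.955). Gucy1b1 had 0.646 to 6.26 CPM after OSM and 3.47 to 15.0 CPM after PBS, with -1.59 (SE 0.61, adjusted p = 0.955). Gucy1a1 varied with the mural markers (Pearson r = 0.85, Spearman rho = 0.91, n = 11 mice, and r = 0.89 without the 2 farthest mice), and for Gucy1b1 the correlation was 0.48 (rho = 0.65, and r = 0.42 without these mice). The other was Agt, whose estimate rests on reads in 3 PBS-treated mice. By system, the median log2 fold change was -0.66 for 3 endothelin genes. This is the estimate of Ednra, and the SE of the 3 genes were 1.00 to 2.73. The median was -0.05 for 21 nitric oxide genes, -0.18 for 5 renin-angiotensin and kinin genes and -0.19 for 10 prostanoid genes. It was -0.20 for 10 sphingosine 1-phosphate genes, -0.04 for 16 shear genes and 0.10 for 4 genes around Calcrl. In the last list, Ramp2 had a log2 fold change of 0.15 (SE 0.08), Adm of 0.05 (SE 0.17) and Ramp3 of -1.03 (SE 0.56), with edgeR adjusted p of 0.955, 1 and 0.961.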

How the data were processed

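Sorted endothelial cells of 11 mice were analysed, 5 treated with OSM and 6 with PBS. Per the labels and the study's methods, poly(A)-primed cDNA underwent PCR amplification and single-read sequencing. The authors aligned the reads to GRCm39 with STAR, and counted them over GENCODE genes by featureCounts with its standard settings. The deposited values are raw counts of reads per gene and mouse, without normalization or molecular identifiers, so limits from counts of 0 cover counting error only. Treatments were taken from the labels and litters from the series description. The column headers of mice 10 and 11 carry the numbers 11 and 12 with the same treatment. Of 55359 genes, 54749 were matched to GENCODE vM39 for symbols, positions and exon lengths, and every pair of libraries differed by more than sampling noise (lowest chi-square per gene 67.6).

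Counts were tested with edgeR 4.0.16 in R 4.3.3 (TMM, filterByExpr with a count minimum of 10, robust quasi-likelihood fit, litter and treatment as terms, Benjamini-Hochberg). The SE was derived from F. Log2 CPM used a prior count of 2. DESeq2 1.42.0 was an alternative. The code was tested on simulated data. The 10 genes, the lists and the motifs were chosen with earlier results of these data known. The plan was to name at most 4 genes from each list, by the lowest unadjusted p or as direct ligands, receptors or coreceptors. More were named from the nitric oxide list, the shear list and the list around Calcrl. Nos1, Nos2, Ptgs2, Ece2, Bdkrb2, Spns2, Piezo2, Klf2, Klf4, Thbd, Plxnd1, Pkd1, Slc7a1 and Adm were named beside the 10 genes with their values seen. Alternatives were other scalings, filters, no litter term, thinned libraries, other exon lengths and leaving out mice or litters.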

Additional observations from a re-analysis of the deposited data

Results flagged for a closer look

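Ptgs1 stood out in 1 mouse. Its level of 70.7 CPM in OSM-treated mouse 2 was far above the other 4 OSM-treated mice, the highest of which had 33.9 CPM, and its gap made up 0.792 of the range of the group, above Dixon's 95% critical value of 0.710 for 5 samples. It was the only such value among the 20 groups tested (10 genes in 2 treatments), and chance alone gives about 1 in 20. Without this mouse, the log2 fold change of Ptgs1 went from 0.01 to -0.27.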

How the results depend on the processing

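The log2 fold change (OSM minus PBS) of each of the 10 genes was recomputed under 25 settings. Of the 250 values, 231 kept their sign, 19 reversed and 0 passed the threshold. Ptgs1 reversed under upper-quartile normalization (-0.00064), under scaling on the endothelial markers (-0.0325), which moved the median of all genes to -0.07, and after thinning to the smallest library (-0.0013). When a mouse or litter was left out, the log2 fold changes ranged from -0.41 to 0.35 for Ptgs1, from -0.24 to 0.17 for Nos3, from -0.31 to 0.31 for Edn1, from -0.17 to 0.0063 for Ece1 and from -0.29 to 0.098 for Piezo1. The sign of Edn1 turned without OSM-treated mouse 6, PBS-treated mouse 7 or 8 or litter 2, and that of Ece1 only without PBS-treated mouse 8. Ednrb, Ace, Ptgis, S1pr1 and Calcrl kept their sign under all 25 settings, with leave-out ranges of -1.50 to -0.0075, -0.66 to -0.24, -0.39 to -0.027, 0.045 to 0.13 and 0.11 to 0.53. The lowest value of Calcrl and the value of Ptgis nearest 0 came without litter 2, that of Ace nearest 0 without OSM-treated mouse 9, and S1pr1 was lowest without PBS-treated mouse 7. The lowest unadjusted p over the settings was 0.00912 for Calcrl, without PBS-treated mouse 11, and none of the adjusted p passed. The same sign in all litters was seen for 2 or 3 of the 10 genes under 4 other scalings, chosen after seeing the data. Over all genes, OSM against PBS gave 65 calls among 28940 genes in edgeR without a filter on low counts. DESeq2 gave 168 calls among 28940 genes with litter and 88 among 26782 genes without litter. In each of these, 0 of the 10 genes was called. Litters gave 3 calls, 625 without a filter (5 of the 10 genes), 995 by DESeq2's likelihood ratio test (5 of the 10 genes), and 0 to 44 when a mouse was left out (0 to 1 of the 10 genes). These single calls were Edn1 without OSM-treated mouse 6 (edgeR, adjusted p = 0.0422) and S1pr1 without PBS-treated mouse 8 (edgeR, adjusted p = 0.0467). The treatment effect differed between litters for 673 of 28940 genes by DESeq2's likelihood ratio test, with 0 of the 10 genes. In edgeR it differed for 0 to 1 genes when a mouse was left out, a setting chosen after seeing the data. The causes were not tested. Divided by the longest transcript, levels were 107 CPM per kilobase for Nos3, 145 for Ece1 and 74.4 for Ptgis. Over bases shared with no other gene, also chosen after seeing the data, they were 136 for Nos3 and 36.8 for Piezo1, and 5 or 6 of 9 neighbouring pairs differed under the other lengths and scalings. Litter was the block in the reported fit, and the groups share no replicate numbers that would allow another pairing of single mice. The spread over mice reached 47.3% of the mean (Edn1), and the lowest count behind a value was 151 reads (Ednrb). With 5 and 6 mice, p-values set a difference against the spread between these mice and cover no other mice. In edgeR, the spread of a gene is estimated with information from all genes tested.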
